A study of Danio rerio with 8 samples.

Results

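The circadian clock genes of the zebrafish liver were read on 8 arrays. Of 43 clock genes looked up by their symbol in the authors' annotated cluster list, 38 were measured, out of 22653 gene symbols on the array. The symbols *cry1a*, *cry1b*, *cry2a*, *cry2b* and *cry3* were not used in that list, which held cry1 genes under other symbols, described apart below. A transcript cluster is the set of probes that reads 1 transcript region, and each gene was represented by its cluster with the highest mean signal over the 8 arrays. *arntl2* had 4 clusters, *per1a* had 2 and the other genes had 1 each. Of the measured genes, 25 had a mean log2 signal of at least 5 and 13 lay under it, where changes are read less surely.

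The OF group was adult wild-type fish of the AB strain fed oligo-fucoidan (OF), a sulfated polysaccharide of brown seaweed cut to small size, at 300 mg/kg by oral gavage 3 times a week for 1 month. The control group was untreated (mock) wild-type fish of the same strain. Fish of both groups were 5 months old at the start and 6 months old by the labels, and the experiment was run in 2 batches, each with 2 OF and 2 control livers on ZebGene 1.1 ST arrays. The sex of the fish, their light cycle and the hour at which livers were taken are not given in the sources used here. Whole liver was read, so fewer cells of a type and less RNA per cell cannot be told apart.

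In the vertebrate clock, Clock or Npas2 pairs with Arntl (Bmal1) and switches on genes with E-box elements, among them the *per* and *cry* genes, whose proteins then shut their own activators down. A second loop runs through the Nr1d (Rev-erb) repressors and the Ror activators, which compete for the same elements in genes such as *arntl1a*. Another runs through the PAR bZIP activators Dbp, Tef and Hlf and their opponent Nfil3 at D-box elements. Zebrafish tissues, the liver included, hold clocks that respond directly to light, and the transcripts of these genes rise and fall within each day.

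Signals are log2 values normalized by the authors, and the 2 values of a group are given in the order replicate 1, replicate 2. A replicate number names an array within its group, taken here as 1 fish, and the labels do not say that it links fish across groups or batches. The arrays had median log2 signals of 2.11 to 2.13 in batch 1 and of 2.54 to 2.63 in batch 2, and 2 arrays of a group correlated at r = 0.929 to 0.964 over all clusters. For 9 of the 38 clock genes every batch 2 array lay above every batch 1 array, against 28.6% of all 59300 clusters, so batches were compared within themselves or with batch as a term. The 15 measured hepatocyte markers averaged 10.75 to 12.45 in log2 signal on each array. Among them *fabp10a* stayed between 12.62 and 13.38, while *serpina1* ran from 4.20 to 11.78 and *serpina1l* from 2.35 to 10.64. Markers of other cells differed between arrays as well. All 10 measured ovary markers were called higher with OF in batch 1, by the thresholds given below, against 3.26% of all clusters. Their mean log2 signals were 7.09 and 5.27 on the OF arrays and 1.78 and 1.92 on the control arrays. The log2 of the summed signal was 9.46 to 11.1 on OF arrays against 5.12 to 5.29 on control arrays. In batch 2 the means were 3.75 and 1.80 on OF arrays against 2.89 and 3.62 on control arrays. Of 5 measured erythrocyte markers 4 were called lower in batch 1, against 3.47% of all clusters (means of 3.26 and 2.91 on OF arrays against 5.34 and 4.40 on control arrays). In batch 2, 4 were called higher, against 2.55% of all clusters (5.02 and 6.17 on OF arrays against 4.34 and 4.08 on control arrays). The 4 measured estrogen-responsive genes (*vtg2*, *vtg3*, *vtg6*, *esr1*) averaged 10.38 and 12.02 on OF arrays against 2.74 and 2.80 on control arrays in batch 1, and 12.72 and 2.74 on OF arrays against 12.73 and 12.84 on control arrays in batch 2. Both OF arrays of batch 1 were thus high, and both control arrays low, in ovary and estrogen-responsive markers. A change with OF in that batch cannot be told apart from a change with these markers. Among batch 2 arrays only OF replicate 2 was low in the estrogen-responsive genes, so its distance from OF replicate 1 cannot be told apart from that difference. The part of all these markers in the clock gene values was not tested.

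The comparison of OF with control fish asks which clock genes OF feeding changed. A gene is said to be called where it passed the thresholds of the study's methods, more than 2-fold and under 0.05 in unadjusted p, here by limma, a linear model that shares the spread across all clusters. Over both batches together, 0 clock genes were called higher and 3 were called lower with OF (*rorab*, *cry5* and *bhlhe41*), against 0.54% higher and 0.474% lower of all clusters. Of the 25 genes with a mean of at least 5 only *rorab* was called, against 1.86% of the 6790 genes of such signal. In batch 1 alone 2 were called higher (*arntl2*, *nfil3*) and 4 lower (*nr1d2a*, *nfil3-6*, *ciarta*, *dbpa*), against 3.26% and 3.47% of all clusters. In batch 2 alone 1 was called higher (*nfil3-5*) and 5 lower (*rorab*, *cry2*, *cry5*, *tefa*, *bhlhe41*), against 2.55% and 3.12% of all clusters. Among genes with a mean of at least 5 the calls numbered 4 of 25 in batch 1, against 16.2% of genes of such signal, and 3 of 25 in batch 2, against 16.7%, shares no higher than among other genes. None was called in both batches. In a fit of the 4 groups over all 8 arrays with 1 shared spread, *nfil3-6*, *ciarta* and *dbpa* were not called in batch 1, *nfil3-5* was not called in batch 2, and *rorab* was called in batch 1 as well. The median change of the 38 genes was -0.25 over both batches, -0.51 in batch 1 and 0.05 in batch 2, against -0.0023, -0.03 and 0.03 over all clusters. For the 25 with a mean of at least 5 it was -0.41, -0.82 and -0.15, against -0.09, -0.10 and -0.03 for genes of such signal. After Benjamini-Hochberg adjustment over all clusters no clock gene passed 0.05 in limma, with a smallest adjusted p of 0.955 over both batches, 0.202 in batch 1 and 0.217 in batch 2, and 0.0%, 0.0% and 0.0101% of all clusters passed. Before adjustment 4, 7 and 10 clock genes stood under 0.05, against 4.49%, 10.6% and 9.74% of all clusters.

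**Figure D1:**
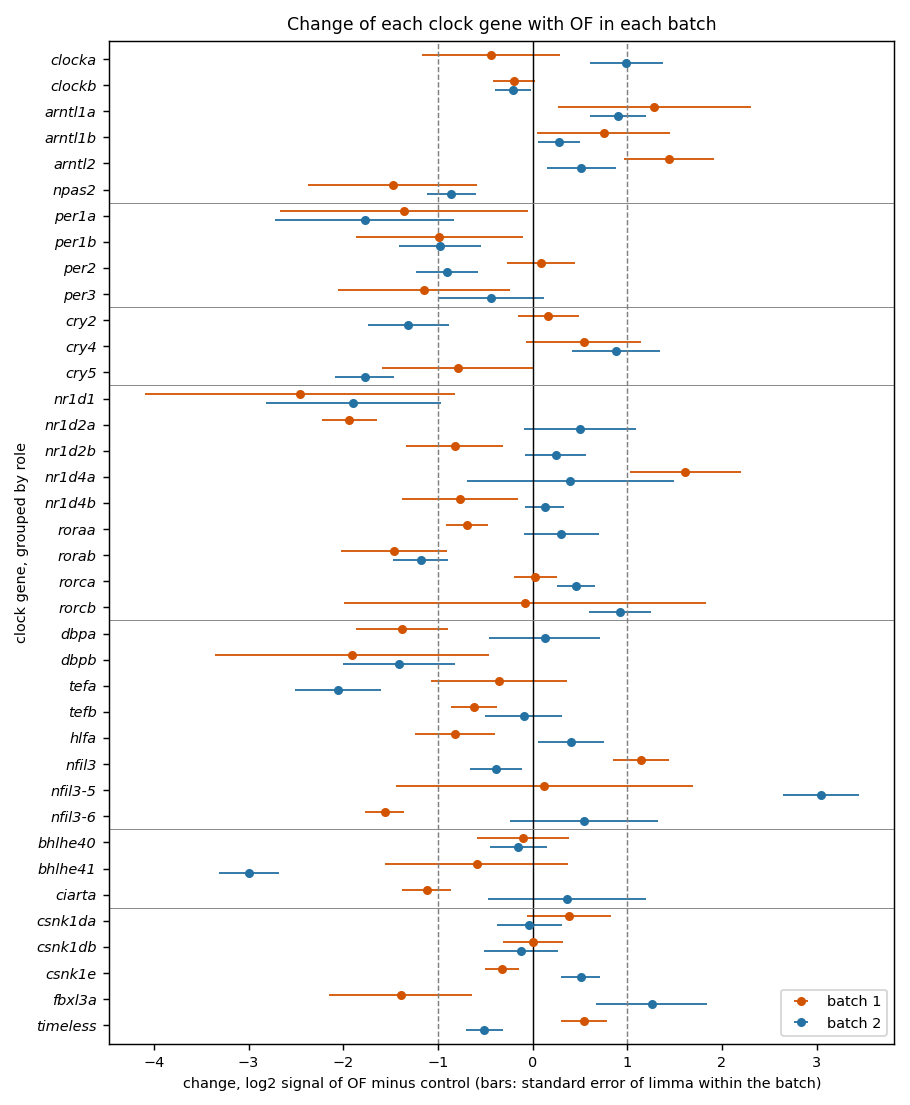
Change of each measured clock gene with OF in batch 1 (orange) and batch 2 (blue), as OF minus control on the log2 scale; points are differences of the means of 2 OF and 2 control arrays, bars are limma's standard errors and dashed lines mark a 2-fold change. The 4 per genes lie left of 0 except *per2* in batch 1 (0.08), while several nr1d, ror and nfil3 genes lie on opposite sides in the batches.

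The *per* genes encode the classical repressors that dimerize with Cry proteins. *per1a* read 2.71 and 6.36 on the OF arrays of batch 1, against 6.07 and 5.73 on the control arrays, and 3.21 and 5.86 on the OF arrays of batch 2, against 5.94 and 6.67 on the control arrays. *per3*, the brightest of the 4 clusters, read 6.04 and 8.55 with OF against 8.54 and 8.34 in controls of batch 1, and 7.47 and 9.03 with OF against 8.77 and 8.61 in controls of batch 2. *per1b* read 4.54 and 6.83 with OF against 7.10 and 6.24 in controls of batch 1, and 5.98 and 7.05 with OF against 7.70 and 7.28 in controls of batch 2. For all 3 the OF replicate 1 array of each batch stood far below the other arrays, while the OF replicate 2 array lay within or near the range of the controls. *per2*, which light induces in zebrafish, read 5.77 and 6.61 with OF against 6.28 and 5.94 in controls of batch 1, and 5.32 and 6.10 with OF against 6.69 and 6.54 in controls of batch 2. The OF replicate 1 array was again the lowest in each batch, by less. The group means were lower with OF over both batches for all 4 *per* genes, by a median log2 of -0.89, and none was called. The change was -1.57 ± 0.87 for *per1a* (SE, 4 OF and 4 control arrays, adjusted p = 0.955 by limma) and -0.98 ± 0.52 for *per1b* (adjusted p = 0.955 by limma). The 2 OF arrays of a batch were a median of 2.40 apart in batch 1 and 1.31 apart in batch 2, against 0.34 and 0.29 for the 2 control arrays of a batch. The other *per1a* cluster read 2.24 and 6.10 with OF against 5.71 and 5.91 in controls of batch 1, and 2.33 and 5.29 with OF against 3.65 and 4.27 in controls of batch 2, so it too was lowest on the OF replicate 1 arrays. Its OF replicate 2 array lay above both controls in each batch. The change of that cluster was -0.89 over both batches and -0.15 in batch 2, against -1.57 and -1.77 for the brighter cluster.

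**Figure D2:**
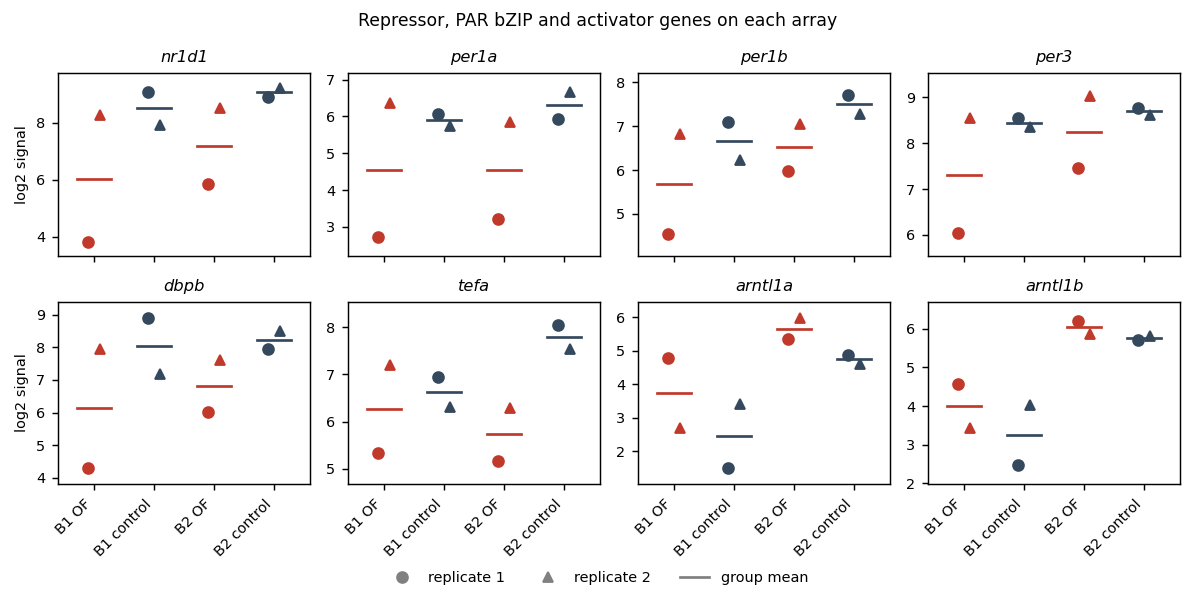
Log2 signal of *nr1d1*, *per1a*, *per1b*, *per3*, *dbpb*, *tefa*, *arntl1a* and *arntl1b* on each array, with OF (red) left of control (dark blue) in each batch; circles are replicate 1, triangles replicate 2 and lines group means. In the first 6 panels the lowest array of each batch is OF replicate 1, as for *nr1d1* at 3.84 in batch 1 and 5.84 in batch 2.

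The *cry* genes belong to the cryptochrome and photolyase family, whose clock members repress Clock and Arntl, and 3 of the 8 listed symbols were measured. Genes of the cry1 family were measured under other symbols and are described apart. Counts and medians of the *cry* role therefore rest on *cry2*, *cry4* and *cry5* and leave the cry1 genes out. *cry2* read 6.31 and 6.60 on the OF arrays of batch 1, against 6.66 and 5.92 on the control arrays, and 4.83 and 5.96 on the OF arrays of batch 2, against 6.65 and 6.76 on the control arrays. The groups overlapped in batch 1 and did not in batch 2, where *cry2* was called lower with OF by -1.31 ± 0.43 (SE, 2 arrays a group, adjusted p = 0.444 by limma). That call was lost without OF replicate 1 (-0.75), control replicate 1 (-1.37) or control replicate 2 (-1.26). *cry5* read 2.1 and 3.72 with OF against 4.45 and 2.94 in controls of batch 1, and 2.22 and 2.82 with OF against 4.51 and 4.08 in controls of batch 2. It was called lower in batch 2, by -1.77 ± 0.31 (adjusted p = 0.243 by limma), and over both batches, by -1.28 ± 0.49 (adjusted p = 0.955 by limma), at signals under 5. The call over both batches was lost without any array but the batch 1 OF replicate 2 and batch 1 control replicate 2 arrays, with changes of -1.05 to -1.30. *cry4* lay between 2.71 and 5.44 and was highest on the OF replicate 1 array of each batch, and it was not called.

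The *nr1d* genes encode the Rev-erb repressors of *arntl* and other genes with Ror elements. *nr1d1* read 3.84 and 8.26 on the OF arrays of batch 1, against 9.10 and 7.91 on the control arrays, and 5.84 and 8.51 on the OF arrays of batch 2, against 8.90 and 9.24 on the control arrays. It was lowest on the OF replicate 1 array in both batches, 4.59 below the mean of the other 3 arrays in batch 1 and 3.04 below it in batch 2, the largest drop of the 38 genes in each batch. Its change over both batches was -2.18 ± 1.01 (SE, 4 arrays a group, adjusted p = 0.955 by limma) and it was not called with all arrays in either batch or over both. *nr1d2a* behaved otherwise. It read 6.61 and 6.18 with OF against 8.07 and 8.59 in controls of batch 1, and 8.90 and 9.21 with OF against 7.74 and 9.37 in controls of batch 2. Both OF arrays lay below both control arrays in batch 1, where it was called lower by -1.94 ± 0.29 (adjusted p = 0.22 by limma), a call kept without any 1 of the 4 arrays, and both OF arrays lay between the 2 control arrays in batch 2. *nr1d2b* ranged from 5.43 to 7.89, *nr1d4a* from 2.45 to 6.20 and *nr1d4b* from 1.52 to 3.17, and none of these was called.

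The Ror receptors are the activators that share elements with Rev-erb. *rorab* read 3.97 and 4.06 on the OF arrays of batch 1, against 6.23 and 4.72 on the control arrays, and 5.41 and 5.96 on the OF arrays of batch 2, against 7.05 and 6.68 on the control arrays. It was the only 1 of the 38 genes whose OF arrays lay below both controls in each batch, a pattern held by 2.82% of all clusters. Its change was -1.32 ± 0.33 over both batches (SE, 4 arrays a group, adjusted p = 0.955 by limma) and -1.18 ± 0.29 in batch 2 (adjusted p = 0.328 by limma), and -1.46 ± 0.56 in batch 1, where it was not called (adjusted p = 0.496 by limma). The call over both batches was lost without the batch 1 control replicate 1 array, where the change of -0.996 was just short of 2-fold, and in batch 2 it was lost without OF replicate 1 (-0.91) or control replicate 1 (-0.9996). *rorab*, *per1a* and *nr1d1* stand in the study's plot of genes lower with OF on these same arrays, and their direction here is therefore no independent evidence. The paper describes its lower genes as shared by its 2 batches. In the fits of each batch here, *nr1d1* and *per1a* were called in neither and *rorab* in batch 2 only. *rorcb* read 7.40 and 3.25 with OF against 3.70 and 7.11 in controls of batch 1, and 8.20 and 8.83 with OF against 7.83 and 7.36 in controls of batch 2. In batch 1 it was high on OF replicate 1 and control replicate 2 and low on the other arrays, so its 2 OF fish lay far apart and so did its 2 controls. *rorca* stayed between 6.61 and 7.02 in batch 1 and between 8.31 and 8.90 in batch 2, *roraa* lay under 5 throughout, and none of the 3 was called.

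**Figure D3:**
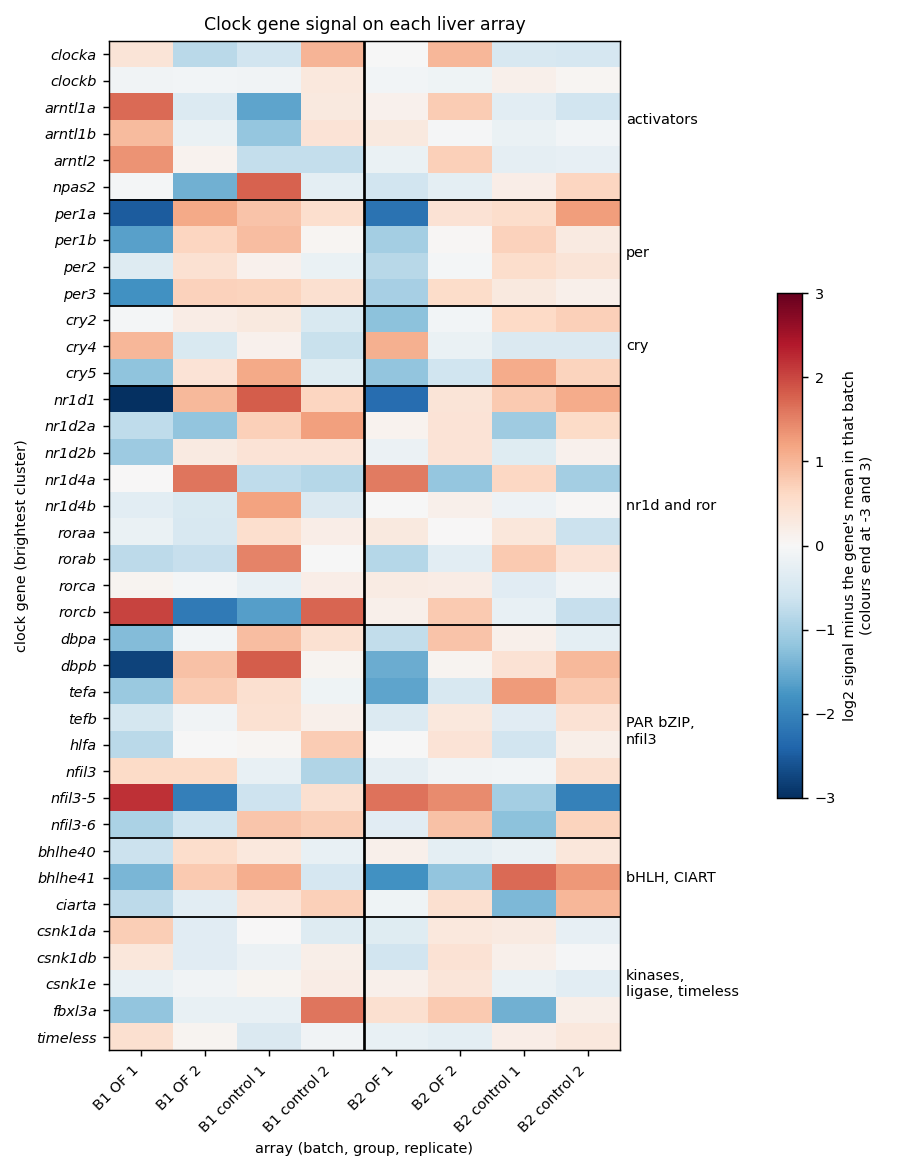
Log2 signal of the 38 measured clock genes on each array after the gene's mean in that batch was subtracted, with genes grouped by role and OF arrays left of control arrays in each batch; colours end at -3 and 3. The columns B1 OF 1 and B2 OF 1 are blue for the 4 per genes, *nr1d1*, *dbpb* and *tefa*.

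Of the 6 activators, the positive arm of the clock, 1 was called in a batch. *clockb*, the brightest activator cluster, read 5.58 and 5.62 on the OF arrays of batch 1, against 5.58 and 6.01 on the control arrays, and 7.61 and 7.55 on the OF arrays of batch 2, against 7.82 and 7.75 on the control arrays, a change of -0.20 ± 0.13 over both batches (SE, 4 arrays a group, adjusted p = 0.955 by limma). *arntl1a*, a zebrafish Bmal1 gene, read 4.80 and 2.69 with OF against 1.52 and 3.4 in controls of batch 1, and 5.34 and 5.96 with OF against 4.88 and 4.61 in controls of batch 2. *arntl1b*, the other Bmal1 copy, read 4.57 and 3.43 with OF against 2.47 and 4.02 in controls of batch 1, and 6.20 and 5.87 with OF against 5.70 and 5.82 in controls of batch 2. In batch 1 both copies ordered the 4 arrays exactly opposite to *nr1d1*, with OF replicate 1 highest and control replicate 1 lowest. They were the only 2 of the other 37 genes to do so, or 5.41%, close to the 3.82% of all clusters. Both are dim, with mean signals of 4.15 and 4.76. In batch 2 neither had that order. The changes over both batches were 1.09 ± 0.56 for *arntl1a* (adjusted p = 0.955 by limma) and 0.51 ± 0.39 for *arntl1b* (adjusted p = 0.955 by limma). *arntl2* read 3.77 and 2.52 with OF against 1.70 and 1.71 in controls of batch 1, and 4.04 and 4.97 with OF against 3.98 and 3.99 in controls of batch 2. Its OF arrays lay above both controls in each batch, as in 2.54% of all clusters, and it was called higher in batch 1 by 1.44 ± 0.47 (adjusted p = 0.436 by limma), at signals under 5. That call was lost without OF replicate 1 (0.81) or either control array (1.43 and 1.44), and with its 4 clusters averaged (1.07). None of the other 3 *arntl2* clusters was called, and in 2 of them the groups overlapped in batch 1, at 4.50 and 2.07 with OF against 2.40 and 1.47 in controls and at 3.26 and 1.57 with OF against 1.94 and 1.54 in controls. *npas2*, the Clock relative, read 4.66 and 3.27 with OF against 6.47 and 4.42 in controls of batch 1, and 6.34 and 6.62 with OF against 7.12 and 7.56 in controls of batch 2. Its mean was lower with OF in each batch, by -1.17 ± 0.50 over both, and it was not called (adjusted p = 0.955 by limma). *clocka* lay between 4.07 and 7.75 and was not called.

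The PAR bZIP factors carry the clock's rhythm to output genes in liver. *tefa*, *dbpb*, *dbpa* and *tefb* were, like the *per* genes, lowest on the OF replicate 1 array of each batch. *tefa* read 5.34 and 7.21 on the OF arrays of batch 1, against 6.94 and 6.32 on the control arrays, and 5.17 and 6.29 on the OF arrays of batch 2, against 8.04 and 7.54 on the control arrays. In batch 2 both OF arrays lay below both controls and *tefa* was called lower by -2.06 ± 0.45 (SE, 2 arrays a group, adjusted p = 0.288 by limma), a call lost without control replicate 1 (-1.81, with an unadjusted p just over 0.05). *dbpb* read 4.29 and 7.96 with OF against 8.90 and 7.17 in controls of batch 1, and 6.03 and 7.6 with OF against 7.95 and 8.50 in controls of batch 2. It ordered the 4 arrays as *nr1d1* did in both batches, and its change over both was -1.66 ± 0.84 (adjusted p = 0.955 by limma). That order was held by 4 of the 37 other clock genes in batch 1 and by 5 in batch 2. Of all clusters 4.1% and 3.64% held it, and of genes with a mean of at least 5, 4.06% and 6.73%. *dbpa* read 3.64 and 4.84 with OF against 5.85 and 5.39 in controls of batch 1, and 4.86 and 6.44 with OF against 5.75 and 5.30 in controls of batch 2. Its OF arrays lay below the controls in batch 1, where it was called lower by -1.38 ± 0.49 (adjusted p = 0.463 by limma), and on either side of them in batch 2. That call was lost without OF replicate 1 (-0.78), control replicate 1 (-1.15) or control replicate 2 (-1.61). *tefb* ranged from 5.84 to 6.82 and *hlfa* from 7.32 to 9.63, and neither was called.

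The 3 *nfil3* genes, the repressors that oppose the PAR bZIP factors, differed from each other. *nfil3-6* read 8.30 and 8.65 with OF against 10.09 and 9.99 in controls of batch 1, and 9.58 and 10.80 with OF against 8.70 and 10.60 in controls of batch 2. It was called lower in batch 1, by -1.56 ± 0.21 (SE, 2 arrays a group, adjusted p = 0.202 by limma), with each 1 of the 4 arrays left out as well but not with the spread shared over all arrays, and its groups overlapped in batch 2. *nfil3-5* read 5.96 and 1.71 with OF against 3.16 and 4.26 in controls of batch 1, and 6.77 and 6.54 with OF against 4.12 and 3.10 in controls of batch 2. Its mean signal was 4.45, under 5. It was called higher in batch 2, by 3.04 ± 0.40 (adjusted p = 0.217 by limma), again with each array left out but not with the spread shared over all arrays, whereas in batch 1 its 2 OF fish held both the highest and the lowest value. *nfil3* read 4.0 and 4.01 with OF against 3.20 and 2.52 in controls of batch 1, and 4.87 and 5.04 with OF against 5.06 and 5.62 in controls of batch 2. It was called higher in batch 1 by 1.14 ± 0.29 (adjusted p = 0.342 by limma), at signals under 5, and was not called without OF replicate 1 (1.15), OF replicate 2 (1.14) or control replicate 2 (0.80).

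**Figure D4:**
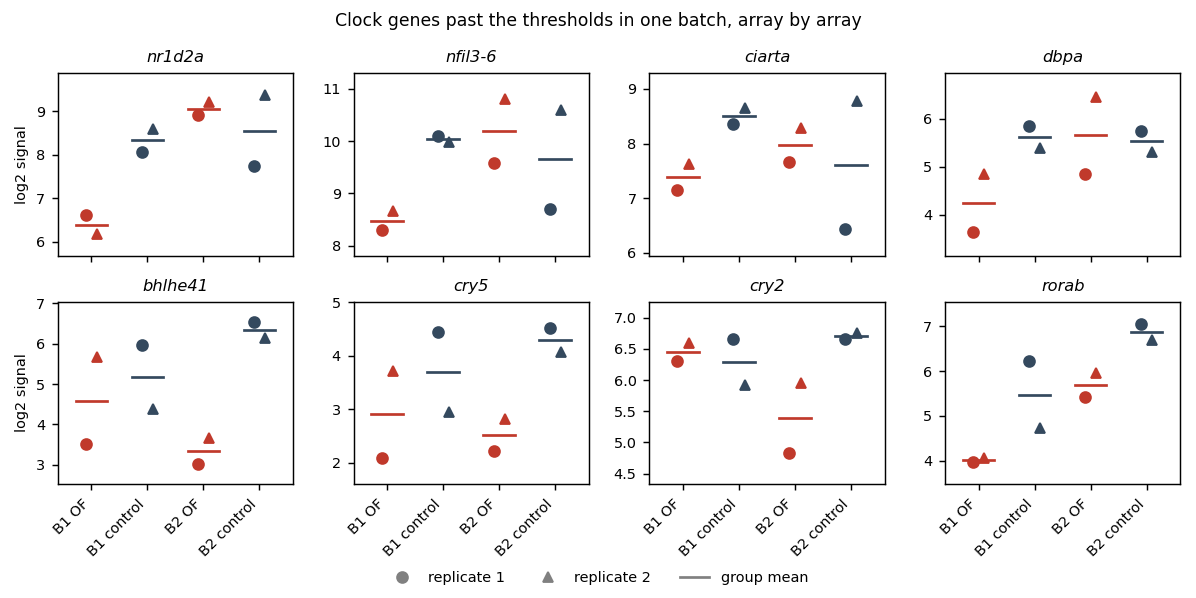
Log2 signal on each array of 8 clock genes called with OF, with OF (red) left of control (dark blue) in each batch; circles are replicate 1, triangles replicate 2 and lines group means. *nr1d2a*, *nfil3-6*, *ciarta* and *dbpa* were called lower in batch 1, where their groups do not overlap, and *bhlhe41*, *cry5*, *cry2* and *rorab* in batch 2.

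Among the remaining repressors, *bhlhe41* (Dec2), which binds E-boxes, read 3.51 and 5.66 on the OF arrays of batch 1, against 5.97 and 4.38 on the control arrays, and 3.02 and 3.67 on the OF arrays of batch 2, against 6.54 and 6.14 on the control arrays. Its mean signal was 4.86, under 5. It had the smallest unadjusted p of the clock genes, in batch 2, where it was called lower by -2.99 ± 0.32 (SE, 2 arrays a group, adjusted p = 0.217 by limma), and the call held without any 1 of the 4 arrays. Its groups overlapped in batch 1, and the call over both batches, at -1.79 ± 0.70 (adjusted p = 0.955 by limma), was lost without any array but the batch 1 OF replicate 2 and batch 1 control replicate 2 arrays, with changes of -1.42 to -1.71. *bhlhe40* (Dec1) lay between 6.42 and 8.95 and was not called. *ciarta*, a Ciart (Chrono) gene that in mice represses Clock and Arntl, read 7.15 and 7.62 with OF against 8.36 and 8.65 in controls of batch 1, and 7.67 and 8.28 with OF against 6.45 and 8.79 in controls of batch 2. Both OF arrays lay below the controls in batch 1, where it was called lower by -1.12 ± 0.26 (adjusted p = 0.308 by limma), and between them in batch 2. That call was lost without OF replicate 1 (-0.88) or control replicate 2 (-0.97).

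The casein kinase genes encode the kinases that mark Per proteins for turnover. *csnk1da* lay between 6.01 and 7.33 and *csnk1db* between 6.62 and 8.16, with changes over both batches of 0.17 ± 0.30 and -0.06 ± 0.26 (SE, 4 arrays a group). *csnk1e* stayed at 2.80 or lower, and *fbxl3a*, which encodes the ligase subunit that targets Cry proteins, ranged from 2.55 to 6.09. *timeless*, a replication fork gene named after a fly clock gene, read 5.30 and 4.90 with OF against 4.40 and 4.71 in controls of batch 1, and 5.37 and 5.29 with OF against 5.78 and 5.91 in controls of batch 2. None of these 5 genes was called with OF in either batch or over both.

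A low signal on the OF replicate 1 array of each batch was shared by all 4 *per* genes, *nr1d1* and the PAR bZIP genes *dbpa*, *dbpb* and *tefa*. *tefb* was lowest there too, but in batch 2 by little (5.93 against 5.99 on control replicate 1). *hlfa* and *nr1d2b* were lowest there in batch 1 only, and *nr1d2a* in neither batch. No *nfil3* gene was lowest on the OF replicate 1 array in both batches, and the pattern was noticed after the values were seen. That array was the lowest of its batch in both batches for 12 of 38 clock genes (all 4 *per* genes, *cry5*, *nr1d1*, *rorab*, *dbpa*, *dbpb*, *tefa*, *tefb* and *bhlhe41*), against 6.24% of all clusters. Of the 25 clock genes with a mean of at least 5 this held for 10, against 8.42% of genes of such signal. For 9 of 38 (*per1a*, *per1b*, *per3*, *cry5*, *nr1d1*, *rorab*, *dbpb*, *tefa* and *bhlhe41*) it lay more than 1 log2 unit below the mean of the other 3 arrays in both batches, against 0.56% of all clusters, and for 7 of the 25, against 1.43%. The reverse, highest in both batches, held for 3 genes (*arntl1b*, *cry4* and *nfil3-5*), against 7.58% of clusters. By role, the median distance of OF replicate 1 from the mean of the other 3 arrays was -2.31 in batch 1 and -1.35 in batch 2 for the *per* genes. It was -1.18 and -0.50 for PAR bZIP and *nfil3* genes, and 0.88 and -0.05 for the activators. For the *nr1d* and *ror* genes it was -0.42 and 0.13, and for the *cry* genes (*cry2*, *cry4* and *cry5*) -0.08 and -1.58. The bHLH and CIART repressors stood at -1.06 and -0.17, and the kinases, ligase subunit and *timeless* at 0.45 and -0.29. Taken apart from the *nfil3* genes, the PAR bZIP genes had distances of -3.72 to -0.69 in batch 1 and of -2.11 to -0.01 in batch 2. Those of the *nfil3* genes ran from -1.28 to 2.91 and from -0.45 to 2.18. The distance between the 2 OF fish of a batch exceeded that between the 2 control fish, with a median of 1.15 against 0.58 over the 38 genes in batch 1 and of 0.63 against 0.44 in batch 2. Over all clusters, most of them dim, the medians were 0.28 against 0.24 and 0.30 against 0.27. Over genes with a mean of at least 5 they were 0.53 against 0.43 and 0.45 against 0.34. The batch 1 OF replicate 1 array was also lowest in the 12 measured exocrine pancreas markers, with a mean log2 of 2.39 against 4.73 to 6.32 on the other 3 arrays of the batch, and in batch 2 the OF replicate 1 array was at 6.16 against 5.74 to 6.29. Their part in the clock gene values was not tested.

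The size of the changes depended on which OF fish was counted. Without the batch 1 OF replicate 2 array the change over both batches was -3.01 for *nr1d1* and -2.34 for *per1a*. It was then -1.44 for *per1b*, -1.23 for *per3* and -2.34 for *dbpb*. Without the batch 1 OF replicate 1 array the changes of these genes were -1.24, -0.88, -0.52, -0.22 and -0.88, in the same order. Within a batch, leaving out an OF array leaves 1 OF array, assumed to vary like the control arrays. The share of all clusters called in such fits was not computed. Whether a rise in calls is particular to clock genes can therefore not be told. With both OF replicate 1 arrays left out, a choice made after seeing the data, 0 clock genes were called over both batches. The share of all clusters called in that fit was not computed. The change of *nr1d1* was then -0.41 and that of *per1b* -0.14, while *per1a* (0.0047), *per3* (0.22) and *dbpa* (0.071) no longer lay below the controls. Those arrays were picked because these genes were lowest on them, so the smaller changes follow from the choice and cannot serve as a test.

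**Figure D5:**
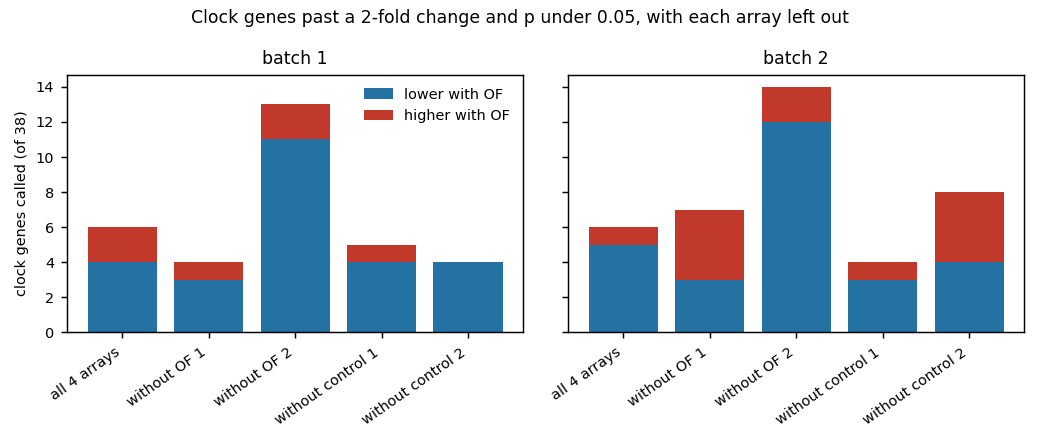
Number of the 38 clock genes past a 2-fold change and an unadjusted limma p under 0.05, with all 4 arrays of a batch and with each array left out, split into lower (blue) and higher (red) with OF. Each bar with an array left out rests on 1 array in that group, and the share of all clusters called in the same fits was not computed.

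Whether OF changed clock genes differently in the 2 batches was tested as an interaction. At an adjusted p under 0.05 the test called 0 of 38 clock genes, against 0.00506% of all clusters, with a smallest adjusted p of 0.196 in limma. By unadjusted p under 0.05, 6 clock genes differed, against 14.3% of all clusters, most of them dim. Of the 25 clock genes with a mean of at least 5, 1 had a higher change in batch 2 and 2 a lower one. That count is for more than 2-fold and an unadjusted limma p under 0.05, passed by 16.9% and 15.7% of genes of such signal. *nr1d2a* had the largest such difference among genes with a mean of at least 5, a change 2.44 ± 0.75 higher in batch 2 than in batch 1 (SE, adjusted p = 0.227 by limma). For *cry2* the difference was -1.48 ± 0.59 (adjusted p = 0.334 by limma) and for *nfil3* -1.53 ± 0.42 (adjusted p = 0.196 by limma). Among the 12 genes that were lowest on the OF replicate 1 array in both batches, the difference ran from -2.40 ± 1.13 for *bhlhe41* (adjusted p = 0.413 by limma) and -1.71 ± 0.95 for *tefa* to 1.50 ± 0.86 for *dbpa*, with 0.56 ± 2.12 for *nr1d1* and 0.28 ± 0.69 for *rorab*. These errors are wide enough to leave differences of several-fold undetected. In batch 1 the OF arrays did not overlap the controls for 4 genes above and 10 below, against 18.5% and 23.9% of all clusters, and in batch 2 for 10 above and 14 below, against 21.0% and 17.8%. Among the 25 with a mean of at least 5, the batch 1 counts were 1 and 8, against 20.2% and 31.3% of genes of such signal. Those of batch 2 were 3 and 11, against 25.4% and 30.0%.

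Other genes of the clock pathway were taken from 2 further lists. Of 29 clock modifiers (kinases, ligase subunits, deubiquitinases and further *ror* and *nfil3* copies) 21 were measured. Their median change was -0.03 over both batches, -0.07 in batch 1 and 0.04 in batch 2, and 0 were called over both batches, 1 in batch 1 and 2 in batch 2. In batch 1 *usp2b*, whose mouse relative is a deubiquitinase of clock proteins, was called lower, at 3.74 and 4.52 on OF arrays against 7.48 and 6.19 on control arrays (change -2.71), and in batch 2 *nfil3-2* was called higher (2.06) and *wdr5* lower (-1.26). Of 20 light-induced and clock output genes 17 were measured, with median changes of -0.19 over both batches, -0.96 in batch 1 and -0.09 in batch 2. *pparab*, a fatty acid sensing nuclear receptor gene, was called lower over both batches, at 6.70 and 5.96 with OF against 8.33 and 8.45 in controls of batch 1, and 7.06 and 7.99 with OF against 8.50 and 7.96 in controls of batch 2 (-1.38). Of the 17, 2 were called higher in batch 1 (*xpc*, *ddb2*) and 5 lower (*lonrf1l*, *namptb*, *hmox1a*, *pparaa*, *pparab*), and in batch 2 only *ddb2* was called, lower. Of all clusters 3.26% were called higher and 3.47% lower in batch 1, and 2.55% and 3.12% in batch 2, and of genes with a mean of at least 5, 16.2% were called in either direction in batch 1 and 16.7% in batch 2. *ddb2*, a light-induced DNA repair gene, read 6.11 and 5.97 with OF against 4.53 and 5.09 in controls of batch 1, and 5.21 and 5.35 with OF against 6.68 and 6.17 in controls of batch 2. Its groups did not overlap in either batch and lay in opposite order, with changes of 1.23 and -1.15.

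Cryptochromes of the cry1 family stood in the cluster list under the symbols *cry1aa*, *cry1ab*, *cry1ba* and *cry1bb*, which were looked up after the values were seen and are not among the 38. Both *cry1aa* and *cry1ab* were lowest on the OF replicate 1 array of each batch, *cry1ab* in batch 2 by little. *cry1aa* read 5.28 and 6.72 with OF against 6.82 and 6.48 in controls of batch 1, and 6.84 and 7.39 with OF against 7.76 and 7.50 in controls of batch 2. *cry1ab* read 4.99 and 6.07 with OF against 7.18 and 6.85 in controls of batch 1, where it was called lower (-1.49), and 5.99 and 7.01 with OF against 6.13 and 6.72 in controls of batch 2. *cry1ba* and *cry1bb* had OF arrays above both controls in batch 2, by 0.95 and 0.99, short of 2-fold.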

How the data were processed

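Total RNA of 8 livers was hybridized by the authors to ZebGene 1.1 ST arrays and normalized with the Transcriptome Analysis Console (GC count normalization and signal space transformation). They deposited a table of log2 signals for 75212 clusters, used here, and worksheets with group averages as linear intensity and log2 values, which served to name clusters and to check the table (batch 2 averages matched within rounding, and batch 1 averages for all but 3 of 59384 clusters in each group, which differed by up to 4.01 for OF and 5.79 for control). Columns of the authors' own fold changes and p-values were not used. No genome build is named for the cluster coordinates, so no coordinates or sequences are shown.

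After 84 control clusters were left out, 59300 clusters entered limma 3.58.1 (R 4.3.3; lmFit, eBayes) in 4 fits: all 8 arrays with an additive batch term, batch 1, batch 2, and the interaction of batch with OF. P-values were adjusted by Benjamini-Hochberg over all clusters. The script was tested on simulated data. Tables and figures used Python 3.11.15, pandas 2.3.3 and matplotlib 3.10.9.

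Genes were named by rule where they had a mean of at least 5 and passed a fold change over 2 with p under 0.05 in a fit, or were the brightest of their role, and dimmer genes where they passed those thresholds. *nr1d1*, *per1a*, *per1b*, *per2*, *dbpb*, *arntl1a*, *arntl1b*, *npas2* and *rorcb* are described array by array although they fall outside that rule, and were chosen after their values were seen. The members and lists were chosen with earlier results of these data known. Precision is limited by having 2 arrays a group and batch. Replicates are taken as separate fish, which the sample titles do not state. The paper describes each plotted array value as an average over 2 fish of a batch. Alternatives were another normalization, filters, variance models and thresholds, and leaving out each array.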

Additional observations from a re-analysis of the deposited data

Results flagged for a closer look

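For 3 clock genes both OF arrays lay on one side of both controls in batch 1 and on the other side in batch 2, as in 11.1% of all clusters. Among the 25 with a mean of at least 5 it was 1 gene, against 22.6% of genes of such signal. The change with OF in batch 2 minus that in batch 1 was -1.53 for *nfil3* (4.0 and 4.01 with OF against 3.20 and 2.52 in controls of batch 1, and 4.87 and 5.04 with OF against 5.06 and 5.62 in controls of batch 2; adjusted p = 0.196 by limma). It was -1.05 for *timeless* (adjusted p = 0.207 by limma) and 0.84 for *csnk1e* (adjusted p = 0.22 by limma), whose signals of 1.78 to 2.80 were the dimmest of the 3. None passed 0.05 after adjustment. Dixon's test for an outlying array was not run, since groups of 2 arrays are too small for it.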

How the results depend on the processing

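The 3 calls over both batches became 5 after quantile normalization (*arntl2* and *npas2* added), where 320 of 59300 clusters were called higher and 333 lower. They became 5 with a mean-variance trend in limma (*nr1d1* and *npas2* added) and 1 with dim clusters left out. By adjusted p, or with both OF replicate 1 arrays left out, they became 0. The 6 calls of batch 1 became 0 by adjusted p. The 6 of batch 2 became 3 with dim clusters left out and 0 by adjusted p. By unadjusted p with no fold threshold they became 10, against 9.74% of all clusters. Leaving out 1 array gave 0 (without batch 1 control replicate 1) to 12 (without batch 1 OF replicate 2) calls over both batches, 4 to 13 in batch 1 (13 without OF replicate 2), 4 to 14 in batch 2 (14 without OF replicate 2) and 0 to 0 for the difference between batches. Without batch 1 control replicate 2 the count over both batches was 6. The share of all clusters called was not computed for fits with an array left out or with the mean-variance trend. Whether these rises in calls are particular to clock genes can therefore not be told. With both OF replicate 1 arrays left out, chosen after seeing the data, the change turned for *per1a* (0.0047), *per3* (0.22), *dbpa* (0.071) and *timeless* (-0.11). For *per1a*, *per3* and *dbpa*, lowest on those arrays, a rise follows from the choice. The change of *timeless* over both batches, 0.01 with all arrays, was -0.033 after quantile normalization and -0.17 to 0.14 with 1 array left out. Single calls were also lost over both batches for *rorab* with no batch term and *bhlhe41* with array weights, in batch 1 for *dbpa* and *ciarta* after quantile normalization, for *dbpa* over all clusters of the value table and with robust empirical Bayes, and for *dbpa*, *ciarta* and *nfil3-6*, and in batch 2 for *nfil3-5*, with 1 spread shared by the 4 groups. The deviations of same-numbered OF and control arrays from their group means had r = 0.113 (batch 1) and r = -0.0727 (batch 2). With 2 arrays a group these values cannot tell whether a number marks a shared tank or day. With the replicate number as a block, 2 clock genes were called over both batches (*npas2* and *rorab*), and the share of all clusters called was not computed. Signals under 5, at which 13 of the 38 genes lie, limit what can be read of them.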
